A study of Saccharomyces cerevisiae and Saccharomyces paradoxus with 16 samples.

Results

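The members described here are cryptic unstable transcripts (CUTs) that the study lists as conserved across its 4 yeast strains, 421 on the plus and 434 on the minus strand, compared between rrp6Δ cells of Σ1278b and rrp6Δ cells of JAY291. Each member is a pair, a CUT of Σ1278b and the CUT of JAY291 in the same row of that list, joined to the annotation of its strain by identical chromosome, start, stop and strand. The members were not chosen by the ratio between these strains. Coverage did enter, as CUTs were called in each strain on rrp6Δ over WT coverage and regions of low rrp6Δ coverage were removed. A CUT that was not called in both strains is not among the members. Every row was found in both annotations, so the pairs made up 35.7% of the 2393 CUTs of Σ1278b and 37.7% of the 2268 CUTs of JAY291, out of 9377 CUTs annotated in the 4 strains.

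CUTs are short non-coding RNAs that RNA polymerase II makes in budding yeast, often from the nucleosome-free regions at the ends of genes. The Nrd1-Nab3 complex ends their transcription early, the TRAMP complex adds a short poly(A) tail, and the nuclear exosome degrades them. Rrp6p is an exonuclease of that exosome, so CUTs build up and can be counted when its gene is deleted. CUT transcription is known to repress or to tune some of the genes it runs beside, among them genes of nucleotide synthesis.

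The experiment comprised 16 strand-specific RNA-seq libraries, 2 of WT and 2 of rrp6Δ cells per strain, and the comparison rests on the 4 rrp6Δ libraries of Σ1278b and JAY291. Σ1278b is a laboratory strain that can grow as filaments, JAY291 is derived from an industrial strain used for bioethanol, S288c is the reference strain of S.cerevisiae and N17 is a strain of the related species S.paradoxus. The Σ1278b rrp6Δ cells carried rrp6::KanMX with his3delta1, leu2delta0 and ura3delta0, whereas the Σ1278b WT cells carried ura3-52, leu2::hisG and his3::hisG. The JAY291 rrp6Δ cells carried rrp6::KanMX as the only listed change from JAY291 WT. N17 carried HO::lox-Kan-lox, with rrp6::NatMX in its rrp6Δ cells. By the study's strain list both rrp6Δ strains compared here and JAY291 WT are MATa and Σ1278b WT is MATα, so the Σ1278b WT and rrp6Δ cells differ in mating type and markers as well as in RRP6. In both strains poly(A) RNA was selected once with one kit in replicate 1 and in 2 rounds with another kit in replicate 2. One of the JAY291 rrp6Δ libraries has an extra letter in the strain part of its title, and its genotype label places it in the group.

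The coverage of a CUT is the authors' mean of the 2 replicates, taken over its nucleotides and scaled by mapped reads. Each strain therefore has 1 value per CUT, with no replicate error and no read count behind it, and the depth of a single value is unknown from the annotations. No test over samples could be made, and every difference below has no replicate check. CUTs are not replicates of a strain, so counts, medians and correlations over them describe these libraries. The deletion itself could not be checked at RRP6, whose mRNA is not among the CUTs.

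The pairing by row held in the coordinates, which do not depend on coverage. The strand was equal in every pair. The JAY291 CUTs lie on 208 contigs of 16 chromosomes, and the contig belonged to the chromosome of the Σ1278b label in 794 pairs. The other 61 pairs are labelled chromosome XII in Σ1278b and lie on contigs of chromosome XIII in JAY291. They are part of 144 pairs with that label, while no Σ1278b CUT is labelled chromosome XIII, so chromosomes were taken from the contig. Of 647 neighbouring pairs on the same contig, 645 kept their order and 574 (88.7%) kept their spacing within 500 bp, with a median spacing of 6871 bp and a median difference of 104 bp. Positions below are those of the genome of each strain, counted from 1. The annotations number the CUTs and name no gene, and an annotation of these genomes was not used here, so no CUT is tied to a gene.

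Most conserved CUTs reached similar coverage in the absence of Rrp6p in both strains. All had been called in both, so CUTs missing from either strain were not compared. The median rrp6Δ coverage was 7.95 in Σ1278b, with a range from 1.62 to 725, and 8.71 in JAY291, with a range from 1.90 to 713. The median of the log2 ratio of Σ1278b over JAY291, with 1 added to both values, was -0.11, which is 1.08-fold higher in JAY291. It was subtracted from all rrp6Δ ratios between the strains given below, unless stated otherwise. After that, 555 pairs (64.9%) lay within 1.5-fold and 751 (87.8%) within 2-fold of each other. Past 1.5-fold, 141 pairs (16.5%) were higher in Σ1278b and 159 (18.6%) in JAY291, 35.1% together. The centred log2 ratio had an SD of 0.72 over CUTs, quartiles of -0.44 and 0.41, and a range from -5.06 to 3.06.

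CUTs more than 2-fold apart were found on both sides. There were 45 pairs (5.26%) more than 2-fold higher in Σ1278b and 59 (6.9%) more than 2-fold higher in JAY291, 12.2% of all pairs together. More than 4-fold, 4 pairs (0.468%) were higher in Σ1278b and 9 (1.05%) in JAY291, 1.52% together. The balance between the sides depended on how the strains were scaled. Without subtracting the median, 33 were higher in Σ1278b and 75 in JAY291, and when the ratio of summed coverage was subtracted instead, 66 were higher in Σ1278b and 40 in JAY291. No side can therefore be called the larger one from these data. The 45 pairs had a median coverage of 17.4 in Σ1278b and 7.44 in JAY291, and the 59 pairs had a median of 6.56 in Σ1278b and 20.9 in JAY291. The N17 CUTs in the same rows had medians of 7.41 and 7.80, beside 7.15 over all rows.

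**Figure D1:**
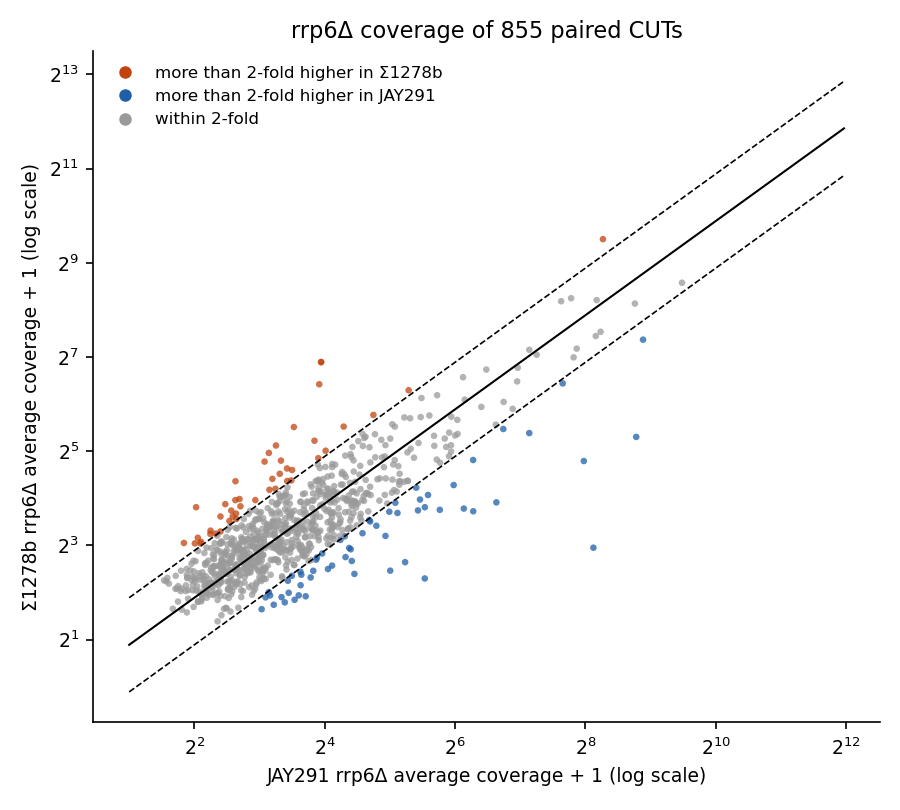
rrp6Δ average coverage with 1 added in JAY291 (horizontal) and Σ1278b (vertical), both on log axes, for all paired CUTs, with colours for pairs more than 2-fold higher in Σ1278b (45), more than 2-fold higher in JAY291 (59) and within 2-fold (751). The solid line is the median ratio and the dashed lines are 2-fold to either side of it. Most points follow the solid line over the whole range, and a few lie far below it at high JAY291 coverage.

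The strains differed more among well covered CUTs than among weakly covered ones. The pairs were divided into 4 equal bins of mean log2 coverage over both strains. In the lowest bin, of 214 pairs, the centred log2 ratio had an SD of 0.50, and 5 pairs were more than 2-fold higher in Σ1278b and 7 in JAY291. In the highest bin, also of 214 pairs, the SD was 0.96, and the counts were 16 in Σ1278b and 25 in JAY291. The bins between had SDs of 0.60 and 0.74, so the spread rose at each step. The median ratio passed from 0.06 in the lower 2 bins to -0.07 in the third and -0.16 in the highest, towards JAY291. Weakly covered CUTs are bounded from below, because the authors removed regions of low rrp6Δ coverage, and adding 1 draws low ratios towards 0. The bins also use the same coverage values as the ratio, so a high value in either strain alone lifts a pair to a higher bin. The part of these points in the rise was not tested.

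**Figure D2:**
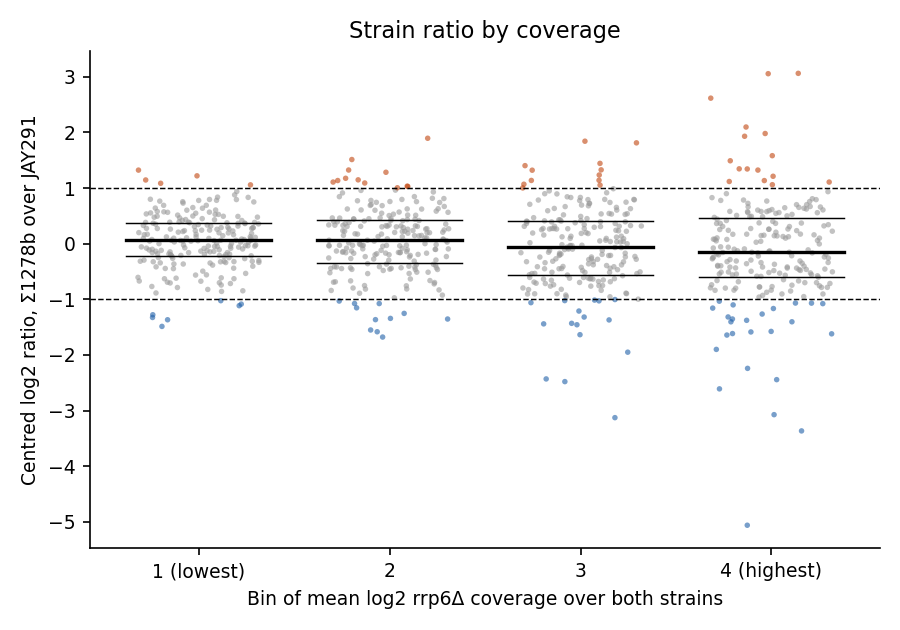
Centred log2 ratio of rrp6Δ coverage, Σ1278b over JAY291, for each pair (points) by bin of mean log2 coverage, from lowest (1) to highest (4), with thick lines for medians, thin lines for quartiles and dashed lines at 2-fold. Coloured points past the upper line are higher in Σ1278b and points past the lower line in JAY291, and the SD widens from 0.50 in bin 1 to 0.96 in bin 4.

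The CUTs furthest towards Σ1278b were 2.99 to 8.35-fold higher there. The first of the 10 was CUT4355, on the minus strand of chromosome XIV from 421998 to 422397, paired with CUT6136 on contig33 from 1122 to 1528. Its rrp6Δ coverage was 118 in Σ1278b, 14.4 in JAY291 and 12.7 in N17, and after centring the fold was 8.35. The interval was nearly equal in the strains, 400 bp in Σ1278b and 407 bp in JAY291, so the difference did not go with a difference in length. Σ1278b WT cells already had a coverage of 27.7 here, against 0.318 in JAY291 WT cells.

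CUT4354, on the plus strand of chromosome XVI from 610845 to 611148, had the same coverage values to 3 digits, 118 in Σ1278b and 14.4 in JAY291 (CUT6135), but 58.9 in N17. Its fold was 8.32, or 13.6 by coverage summed over the CUT, and WT coverage was 39.9 in Σ1278b and 3.20 in JAY291. CUT4346, on the minus strand of chromosome XI from 164163 to 164459, had 84.7 in Σ1278b, 14.1 in JAY291 (CUT6123) and 9.82 in N17, a fold of 6.13, or 3.98 by the sum. These 3 CUTs were well expressed in Σ1278b even where Rrp6p was present, since WT coverage of CUT4346 was 35.4 in Σ1278b and 0.705 in JAY291. CUT4298, on chromosome XV from 520529 to 521397, had 44.7 in Σ1278b and 10.5 in JAY291 (CUT5885), a fold of 4.28.

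Other CUTs high in Σ1278b had low coverage in WT cells of both strains. CUT4257, on the minus strand of chromosome VII from 663862 to 664212, had an rrp6Δ coverage of 33.8 in Σ1278b and 8.52 in JAY291 (CUT5677), with WT coverage of 1.66 and 0.855. CUT4236, labelled chromosome XII and on a contig of chromosome XIII in JAY291 (CUT5592), had 30.2 in Σ1278b and 7.83 in JAY291, with WT coverage of 1.37 and 0.618. The lengths of both differed between the strains, with 351 bp in Σ1278b and 679 bp in JAY291 for CUT4257, and 1445 bp and 671 bp for CUT4236. When coverage was summed over the CUT instead of averaged, CUT4257 was 1.99-fold and CUT4236 was 8.05-fold higher in Σ1278b. The remaining 4 of the 10, CUT3915 on chromosome X, CUT4121 on XII, CUT4206 on XIV and CUT4210 on VII, were 2.99 to 3.72-fold higher in Σ1278b. Of the 10, 8 lie on the minus strand, beside 4 of the 10 furthest towards JAY291 and 434 of all pairs. With summed coverage 9 stayed more than 2-fold higher in Σ1278b.

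The CUTs furthest towards JAY291 were 3.86 to 33.4-fold higher there. CUT3340, on the plus strand of chromosome X from 339558 to 339817, is paired with CUT6640 on contig187 from 133864 to 134601. Coverage in rrp6Δ cells was 277 in JAY291, beside 6.73 in Σ1278b and 9.94 in N17. The fold of 33.4 was the largest of any pair, but its WT coverage in JAY291 was 404, above that of rrp6Δ cells, beside 0.322 in Σ1278b and 2.68 in N17. The CUT was 260 bp long in Σ1278b and 738 bp in JAY291, and by summed coverage the fold was 121. In JAY291 this RNA was thus abundant with Rrp6p present, the only pair with lower coverage in rrp6Δ than in WT cells in either strain.

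CUT4275, on the minus strand of chromosome XI from 582498 to 582640, had 38.5 in Σ1278b, 438 in JAY291 (CUT6652) and 10.8 in N17, a fold of 10.3. In both strains its rrp6Δ coverage was far above that of WT cells, with WT coverage of 0.265 in Σ1278b and 15.4 in JAY291, and its lengths were close, at 143 and 177 bp. CUT4209, on the plus strand of chromosome XIV from 164580 to 165118, had 26.7 in Σ1278b, 251 in JAY291 (CUT6639) and 2.87 in N17, a fold of 8.41. Its lengths were 539 bp in Σ1278b and 152 bp in JAY291, and by summed coverage the fold was 2.73. CUT3951, on the minus strand of chromosome XI from 251203 to 251426, had 14.1 in Σ1278b, 98.2 in JAY291 (CUT6614) and 28.7 in N17, a fold of 6.10, or 3.73 by summed coverage.

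In several of these 10 pairs the annotated intervals were unequal. CUT2685, on chromosome VI, had a coverage of 3.92 over 1380 bp in Σ1278b and 45.4 over 183 bp in JAY291 (CUT6538), an 8.73-fold difference that was 1.58-fold when coverage was summed over the CUT. CUT3041, on chromosome IV, had 5.25 over 164 bp in Σ1278b and 36.6 over 1787 bp in JAY291 (CUT6500), 5.57-fold by the average and 78.2-fold by the sum. The Σ1278b CUT was more than 1.5 times longer in 6 of the 10 and the JAY291 CUT in 3, and with summed coverage 9 of the 10 stayed more than 2-fold higher in JAY291. CUT2685 was the exception. The remaining 4, CUT3875 on chromosome XVI, CUT2866 on XIV, CUT3901 on VII and CUT2798 on IV, were 3.86 to 5.44-fold higher in JAY291. By summed coverage CUT3875 was 2.75-fold and CUT2798 was 12.5-fold higher there.

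**Figure D3:**
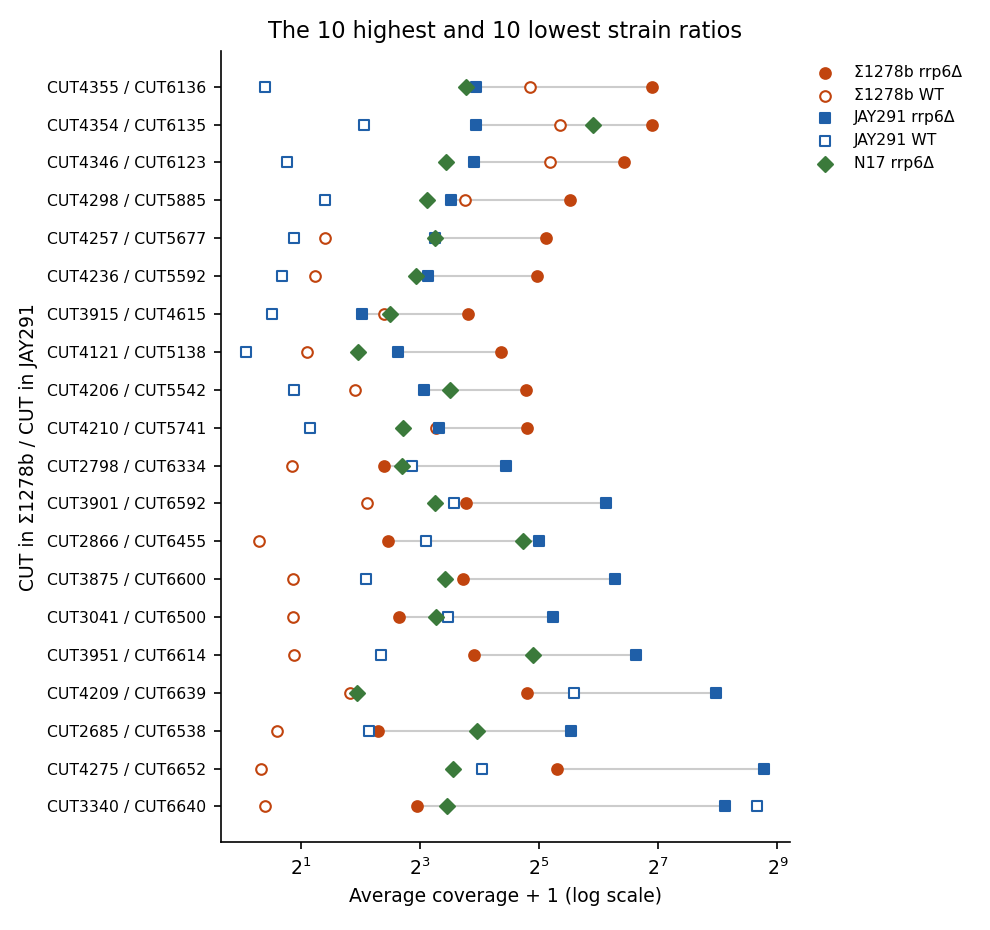
Average coverage with 1 added, on a log axis, for the 10 pairs furthest towards Σ1278b and the 10 furthest towards JAY291, with filled markers for rrp6Δ cells of Σ1278b, JAY291 and N17, open markers for WT cells of Σ1278b and JAY291, and a grey line joining the rrp6Δ values of Σ1278b and JAY291. CUT3340 with CUT6640 is the pair whose JAY291 WT value (404) lies above its JAY291 rrp6Δ value (277).

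The 5 CUTs named next had the highest mean log2 rrp6Δ coverage over both strains, a choice that favours CUTs abundant in both. JAY291 coverage alone would rank CUTs otherwise, as CUT6652 had 438 there while its pair CUT4275 had 38.5 in Σ1278b. CUT4377, on the plus strand of chromosome X from 75346 to 75881, had an rrp6Δ coverage of 381 in Σ1278b, 713 in JAY291 (CUT6657) and 213 in N17. CUT4379, on the minus strand of chromosome XV from 92779 to 92896, had 725 in Σ1278b, 307 in JAY291 (CUT6644) and 81.7 in N17. CUT4372, on chromosome XVI, had 280 in Σ1278b and 432 in JAY291 (CUT6651), and CUT4374, on chromosome XIV, had 295 and 287 (CUT6642). CUT4430, on chromosome XV, had 164 in Σ1278b and 471 in JAY291 (CUT6654). Of these 5, CUT4379 was more than 2-fold higher in Σ1278b (2.54-fold) and CUT4430 more than 2-fold higher in JAY291 (2.65-fold), and the others were 1.11 to 1.73-fold apart. The length of CUT4430 was 810 bp in Σ1278b and 330 bp in JAY291, and by summed coverage it was 1.20-fold apart. That of CUT4379 was 118 bp and 175 bp, and by summed coverage it was 1.54-fold higher in Σ1278b, while CUT4372 was 2.02-fold higher in JAY291, so neither 2-fold call of the 5 held with the sum. CUT6642 begins at base 3 of its contig.

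WT cells had the same side high at most of these CUTs. WT libraries do not enter the rrp6Δ ratio, but the CUTs and their ends were called on rrp6Δ over WT coverage. The WT values are therefore not independent of the members and their intervals. The WT coverage of the conserved CUTs was low, with a median of 0.671 in Σ1278b and 0.656 in JAY291, and it was 0 at 6 CUTs in Σ1278b and 21 in JAY291. Of the 45 pairs higher in rrp6Δ cells of Σ1278b, 43 were above the median ratio in WT cells too and 17 were more than 2-fold higher in Σ1278b WT. Of the 59 higher in JAY291, 53 were below the WT median and 19 were more than 2-fold higher in JAY291 WT. Together 96 of 104 (92.3%) were on the same side, beside 619 of all pairs (72.4%).

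WT ratios past 2-fold were rarer than rrp6Δ ratios past 2-fold. In WT cells 3.51% of all pairs were more than 2-fold higher in Σ1278b and 3.74% in JAY291, 7.25% in all. The share past 2-fold on the same side was 36 of 104 (34.6%) among pairs past 2-fold in rrp6Δ cells, and 26 of the 751 other pairs (3.46%) were past 2-fold in WT. Of the 10 CUTs furthest towards Σ1278b, 8 were more than 2-fold higher in Σ1278b WT, and all 10 of those furthest towards JAY291 were more than 2-fold higher in JAY291 WT. Across all pairs Pearson's r between the rrp6Δ and WT ratios was 0.71 and Spearman's rho was 0.61. Both ratios of a pair use the same intervals, genomes and mapping, and the WT values are close to the 1 that was added, so adding 1 draws WT ratios towards 0.

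The 8 pairs whose WT ratio lay on the opposite side are named here after their values were seen. They were CUT4242 and CUT3456, higher in Σ1278b rrp6Δ cells, and CUT3096, CUT2383, CUT2986, CUT3854, CUT2370 and CUT2842, higher in JAY291 rrp6Δ cells. Their WT ratios were close to 0, between -0.17 and 0.27 on the log2 scale. CUT2986 had an rrp6Δ coverage of 4.94 in Σ1278b and 16.3 in JAY291 (CUT6208), with WT coverage of 1.21 and 0.839. CUT2842 was at 0 in WT cells of both strains, and its rrp6Δ coverage was 4.43 in Σ1278b and 11.4 in JAY291 (CUT5949). By these ratios the strains were apart in rrp6Δ cells and near each other in WT cells at these CUTs. Most of their WT values were below the 1 that was added, which draws the WT ratio towards 0. WT ratios within 1.5-fold were common, at 663 of all pairs, 23 of the 45 higher in Σ1278b and 28 of the 59 higher in JAY291.

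**Figure D4:**
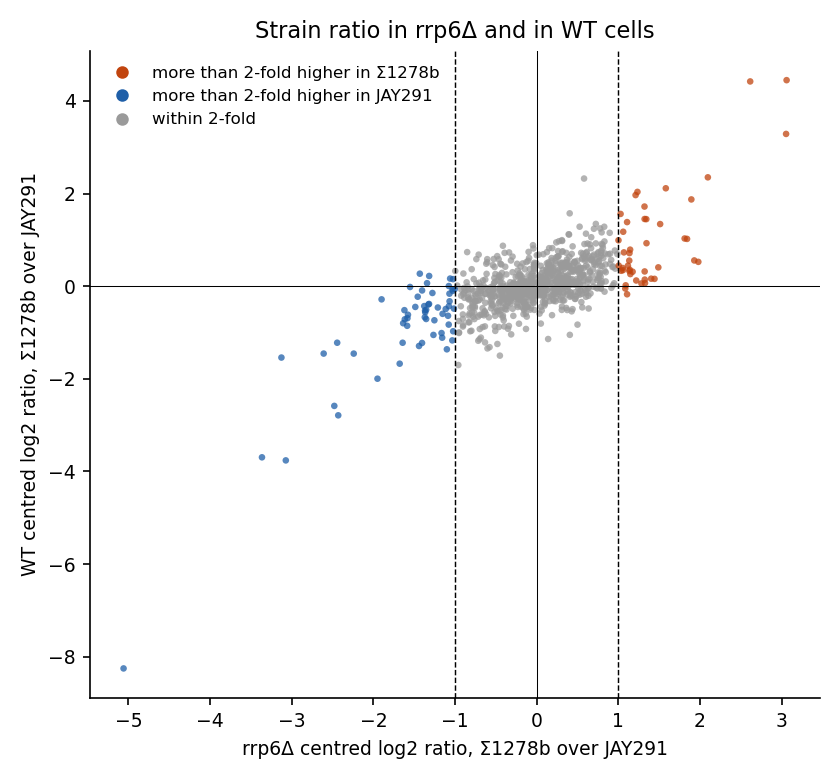
Centred log2 ratio of Σ1278b over JAY291 in rrp6Δ cells (horizontal, dashed lines at 2-fold) and in WT cells (vertical) for all pairs, with colours as in the plot of coverage. Of the 104 coloured pairs, 96 lie on the same side of 0 on both axes and 8 on opposite sides.

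The rise in coverage on loss of Rrp6p had a similar median in both strains. The median log2 ratio of rrp6Δ over WT coverage, with 1 added to both, was 2.23 in Σ1278b and 2.36 in JAY291. The ratio exceeded 2-fold for 853 CUTs (99.8%) in Σ1278b and likewise for 853 (99.8%) in JAY291, and the CUTs had been called on this contrast, so nothing is read from those shares. It was greater in JAY291 at 529 pairs and greater in Σ1278b at 326. These ratios were not centred between the strains, whose median log2 ratio was -0.11 in rrp6Δ and -0.003 in WT cells. Σ1278b WT and rrp6Δ cells also differ in mating type and markers, so no strain difference is read from these counts. CUTs could be high in a strain with a large ratio or a small one. CUT4275 had log2 ratios of 4.96 in Σ1278b and 4.74 in JAY291 although its level differed 10.3-fold, whereas CUT4346, which was high in Σ1278b WT cells, had 1.23 in Σ1278b and 3.15 in JAY291.

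By the centred ratio, average coverage was lower in the strain with the longer CUT, mainly where the Σ1278b CUT was longer. In 167 pairs the Σ1278b CUT was more than 1.5 times longer, and their median centred log2 ratio was -0.27, with 9 more than 2-fold higher in Σ1278b and 20 in JAY291. In 78 pairs the JAY291 CUT was the longer, and the median was 0.19, with 11 more than 2-fold higher in Σ1278b and 7 in JAY291. Without centring these 2 medians were -0.38 and 0.08. In the 78 pairs the median rrp6Δ coverage was 7.99 in Σ1278b and 8.35 in JAY291. In the 610 pairs with lengths within 1.5 times the median was 0.06, with 25 and 32. With coverage summed over the CUT, both medians changed sign, to 0.67 and -1.02, as the sum counts the added length. Pearson's r of the rrp6Δ ratio with the log2 length ratio was -0.14 over all pairs, and that of the WT ratio was 0.015. The shorter strain had another CUT of the same strand within the extra length in 2 of the 167 pairs (1.2%) and in 4 of the 78 (5.13%). The authors had merged regions within 450 bp, so pieces that close would already be joined. These counts therefore cannot show how often a CUT was whole in one strain and in pieces in the other.

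Pairs on the plus and minus strands had different medians. The 421 plus strand pairs had a median centred log2 ratio of -0.07, with 15 more than 2-fold higher in Σ1278b and 31 in JAY291, and the 434 minus strand pairs had a median of 0.12, with 30 and 28. In WT cells the medians were -0.05 and 0.07. The minus strand had the higher median on 11 of 16 chromosomes in rrp6Δ cells and on 15 of 16 in WT cells. The members' rrp6Δ coverage had a median of 7.24 on the plus and 8.95 on the minus strand in Σ1278b, and of 8.47 and 8.89 in JAY291, so among the members the strands stood further apart in Σ1278b. Over the whole annotations the medians were 5.91 on the plus and 6.53 on the minus strand in Σ1278b, and 7.34 and 7.70 in JAY291. The Σ1278b strands were closer there than among the members, but still further apart than those of JAY291. JAY291 contigs were in part reverse complemented by the authors, and the split by strand was made after the data were seen.

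By average coverage, no chromosome median stood far from the others. Medians of the centred log2 ratio by chromosome ranged from -0.17 on chromosome V, over 45 pairs, to 0.14 on chromosome II, over 53 pairs. The largest share of pairs past 2-fold on either side was 21.7% on chromosome XIV, beside 12.2% of all pairs. There 5 of its 60 were higher in Σ1278b and 8 in JAY291. Chromosome VI had 20% of 10 pairs past 2-fold, and chromosome I had none among 10. The 61 pairs of chromosome XIII that carry the label of chromosome XII had a median of 0.08, and the 83 pairs of chromosome XII had -0.06. The medians were small, and 6 of the 16 changed sign with summed coverage. With the sum, chromosome I had a median of -0.49 and chromosome V of -0.42.

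For conservation the authors returned some filtered CUTs to the annotations and edited others by hand. In either annotation 64 pairs were listed outside the rising order of coverage, and which of these steps placed them there is unknown. Their median length was 940.5 bp in Σ1278b and 809 bp in JAY291, beside 544 and 495 bp among pairs in order in both. Their median centred log2 ratio was 0.04 and 6 were past 2-fold (9.38%), beside -0.015 and 12.4% among the 791 pairs listed in order in both.

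Neighbouring CUTs were on the same side about as often as on opposite sides. Of the 647 neighbouring pairs on one contig, 315 (48.7%) had ratios on the same side of 0, and Pearson's r between neighbours was 0.02. The count was 76 of 164 for divergent neighbours, 157 of 313 for tandem and 82 of 170 for convergent ones. Both neighbours were past 2-fold in 6 cases, always on the same side, and 1 of the 2 was past 2-fold in 139. As 12.2% of all pairs were past 2-fold, no clustering of such CUTs is read from the 6 cases. By distance in Σ1278b, 32 of 62 (51.6%) neighbours separated by up to 500 bp were on the same side, and 34 of 78 (43.6%) of those separated by more than 20000 bp.

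The 6 cases in which both neighbours passed 2-fold were spread over chromosomes V, VII, VIII, X, XI and XVI. Towards JAY291, CUT4347 and CUT3554 on chromosome V were 2.14-fold and 3.07-fold higher there, CUT3901 and CUT2180 on VII were 4.72-fold and 2.58-fold higher, and CUT4275 and CUT2289 on XI were 10.3-fold and 2.51-fold higher. Towards Σ1278b, CUT3773 and CUT3988 on VIII were 2.13-fold and 2.64-fold higher, CUT3885 and CUT4265 on X were 2.44-fold and 2.81-fold higher, and CUT4447 and CUT4319 on XVI were 2.08-fold and 2.20-fold higher. No run held more than 2 neighbours. With 5 in place of 1 added, both members stayed past 2-fold only in the case on chromosome V, and in 4 of the 6 cases with summed coverage or without centring (V, VII, X and XI in both). When the ratio of summed coverage was subtracted, the case on V was lost and 5 stayed.

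CUTs that start close together in opposite directions, as a shared nucleosome-free region allows, were also compared. Distances between starts were measured in the Σ1278b genome only. There were 27 such divergent neighbours with starts within 500 bp in Σ1278b, and 14 of them (51.9%) lay on the same side. Pearson's r was 0.09 and Spearman's rho 0.20. Both were past 2-fold in 1 case, CUT4447 (coverage 7.23 in Σ1278b and 3.27 in JAY291) with CUT4319 (53.6 and 25.8), 1 of the 2 was in 7 cases, and neither was in 19. CUT4319 was 243 bp long in Σ1278b and 508 bp in JAY291, and by summed coverage its centred log2 ratio was -0.055. In JAY291 this case lay past the 500 bp limit, with starts at 14060 (CUT4653, minus strand) and 14672 (CUT6404, plus strand).

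Of the 20 CUTs furthest to either side, 5 had such a divergent neighbour within 500 bp in Σ1278b. All 5 neighbours lay within 2-fold, as 87.8% of all pairs did. The distances given here are those of Σ1278b, and in JAY291 the starts of CUT4257 and CUT3284 lay more than 500 bp apart. CUT4275 had a centred log2 ratio of -3.36 and its divergent neighbour CUT4066 had 0.37, with starts 205 bp apart. CUT4355 had 3.06 and CUT3868 had 0.41, with starts 82 bp apart. CUT3951 had -2.61 and CUT4317 had -0.10, with starts 89 bp apart. On chromosome VII the neighbours went to opposite sides, with 1.98 at CUT4257 and -0.75 at CUT3284, and with 1.58 at CUT4210 and -0.72 at CUT4441. The neighbours CUT4066, CUT3868, CUT4317, CUT3284 and CUT4441 are named because they adjoin a named CUT.

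**Figure D5:**
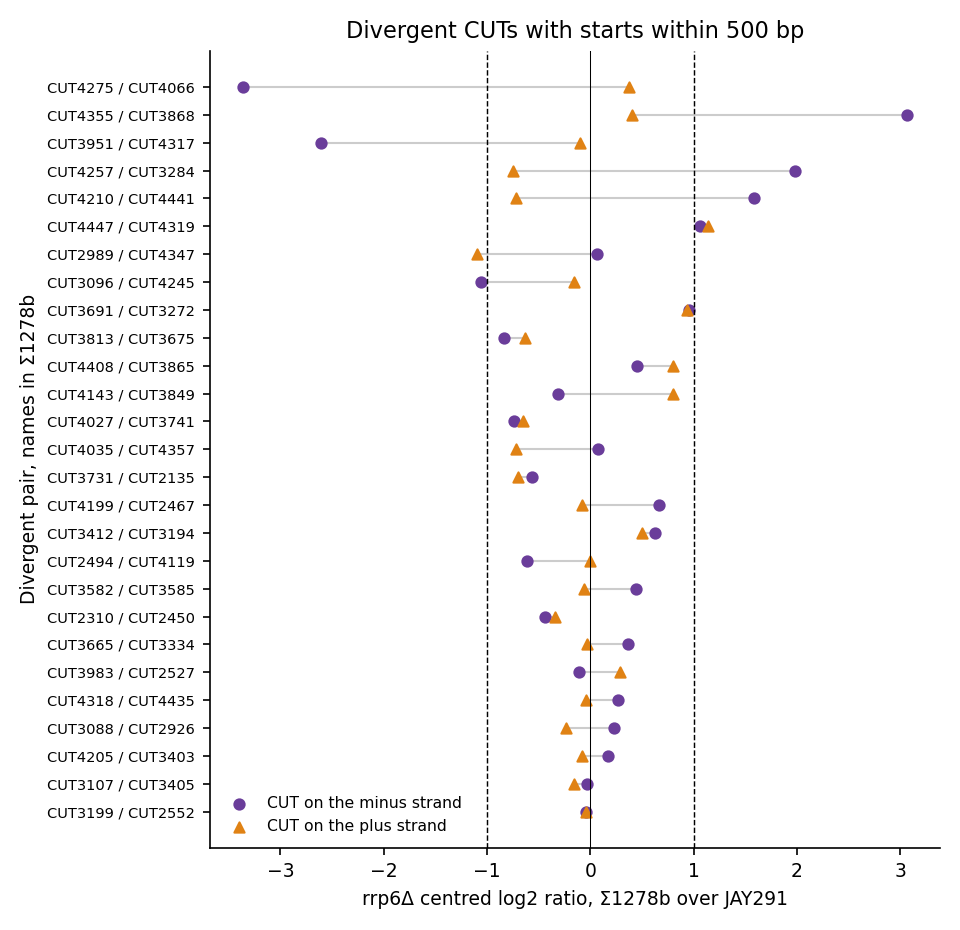
Centred log2 ratio of rrp6Δ coverage, Σ1278b over JAY291, for the 27 divergent neighbours with starts within 500 bp in Σ1278b. The minus strand CUT is a circle and the plus strand CUT a triangle, with a grey line joining the 2 and dashed lines at 2-fold. In 1 row both markers lie past 2-fold and in 7 rows 1 of them does.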

How the data were processed

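Per the labels and the methods, the authors discarded rRNA reads, kept reads with a single hit and up to 2 mismatches (Bowtie 0.12.7) and computed coverage with bedtools 2.16.2. The labels name only the S288c build, whereas the methods map each strain to its own genome. The last Σ1278b CUT on chromosome V ends at 582679, past the R64 length of 576874, so R64 positions and genes were not used. The deposited coverage values, a signal per nucleotide, were scaled by the authors to the mapped reads, adjusted for mappability and for the bias at first nucleotides, and averaged over 2 replicates and over each CUT. CUTs were called by a hidden Markov model, merged within 450 bp and kept from 100 nt. A deposited column of average fold change holds the authors' own rrp6Δ over WT comparison and was not used. The depth behind a value is unknown.

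Starts were deposited counting from 0, and 1 was added. Ratios were log2 of coverage with 1 added, minus the median over 855 pairs, and more than 2-fold means past 1 on that scale. No test was made, as each strain has 1 value per CUT. The ratio step was tested on simulated data. Named are the 10 pairs with the highest and the 10 with the lowest ratio, the 5 with the highest mean coverage, and runs of neighbours past 2-fold on one side (the rule asked for 5, and 6 tied), 35 CUTs in all. The members, lists and alternatives were chosen with earlier results of these data known. Alternatives were other pseudocounts, centring, folds, length limits, summed coverage, and leaving out weakly covered, short, chrXII-labelled or unordered pairs. The S288c annotation was used only for its number of CUTs, since the list's sheet headed S288c carries Σ1278b coordinates. The software was SciPy 1.17.1, NumPy 2.4.6, matplotlib 3.10.9 and pandas 2.3.3 under Python 3.11.15.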

Additional observations from a re-analysis of the deposited data

Results flagged for a closer look

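CUT3340 of Σ1278b and its pair CUT6640 of JAY291, on chromosome X, moved in opposite directions on loss of Rrp6p, and this difference was not tested. The log2 ratio of rrp6Δ over WT coverage, with 1 added, was 2.55 in Σ1278b (6.73 in rrp6Δ and 0.322 in WT) and -0.54 in JAY291 (277 in rrp6Δ and 404 in WT).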

How the results depend on the processing

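No paired analysis was possible because the annotations hold the mean of the replicates, and for the same reason no replicate could be left out. The pairs more than 2-fold higher in Σ1278b numbered 45 and those higher in JAY291 numbered 59. With 5 in place of 1 added they numbered 19 and 31, and with coverage summed over the CUT 94 and 101. Among the 610 pairs with lengths within 1.5 times, centred on their own median, they numbered 22 (3.61%) and 37 (6.07%). Over all pairs the shares were 5.26% and 6.9%. Of the 45 and 59, 31 and 40 were kept with summed coverage. A limit of 1.5-fold gave 141 and 159, and of 4-fold 4 and 9. Over the other 8 alternatives the counts were from 33 to 66 and from 40 to 75. The range of chromosome medians was 0.31, and 0.66 with summed coverage. With summed coverage 6 of 16 chromosome medians changed sign, and so did CUT4319 from 1.13 to -0.055, the median of pairs longer in Σ1278b from -0.27 to 0.67 and of pairs longer in JAY291 from 0.19 to -1.02, the last 2 because the sum counts the length. For CUT4319, 243 bp in Σ1278b and 508 bp in JAY291, the lengths enter in the same way. These last alternatives, for named CUTs, strands and lengths, were chosen after seeing the data. All 20 CUTs furthest to either side stayed past 2-fold under the 4 other choices of pseudocount and centring, and all but CUT4257 and CUT2685 with summed coverage. These 20 are the extremes of the same ratio, so choices that shift it little could hardly have changed this. The SD of the ratio and the share on the same side in WT moved little, from 0.63 to 0.79 and from 88.1% to 92.3%. The share of divergent neighbours on the same side rests on few cases and ranged from 40.0% (6 of 15) to 56.7% (17 of 30). Without replicate values, the error of a single CUT, at low coverage above all, stays unknown.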
